A study of Homo sapiens with 6 samples.

Results

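Chromatin accessibility at genes that drive cell division and DNA copying was compared between A375 cells carrying an empty vector and A375 cells overexpressing HMGB2. The genes were 50 named cell cycle and DNA replication genes, chosen by name, with earlier results of these data known. A peak counted for a gene when its centre lay within the gene body annotated by GENCODE, or lay between genes with that gene as the nearest protein-coding start site. By this rule 49 of the 50 genes had at least 1 peak, and together they held 209 of the 150117 peaks tested in the series, in which 18339 protein-coding genes had a tested peak. All 209 passed the filter on low counts. FEN1, a nuclease that trims lagging-strand fragments, had no peak of its own because the peak at its promoter is centred in the neighbouring gene TMEM258.

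A375 cells are an established line from a human melanoma. The samples were 3 libraries of A375 cells with the empty vector and 3 of A375 cells labelled HMGB2OE, a stable line made by lentiviral transduction and drug selection. Neither the promoter of the HMGB2OE construct nor whether single clones were grown is given in the sources used here. In ATAC-seq, the Tn5 transposase inserts adaptors into open DNA, so the read count of a region (a peak) rises with its accessibility. The study's reporting summary calls the 3 libraries of a group technical replicates of an experiment that was not repeated, so the p-values below measure only the spread between these libraries.

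HMGB2 is a high mobility group protein that binds and bends DNA with little sequence preference, and it is known to be abundant in dividing cells. The genes examined here act at successive steps of the division cycle. Cyclins switch on cyclin-dependent kinases (CDKs), licensing factors load the MCM helicase onto replication origins in G1, fork proteins and nucleotide enzymes serve DNA synthesis in S phase, and mitotic kinases, checkpoint proteins and motor proteins separate the chromosomes. Their transcription is timed mainly at the promoter: E2F factors act on G1/S genes, while the DREAM and MuvB complexes act on G2/M genes through the cell cycle homology region (CHR), often beside CCAAT boxes bound by NF-Y. The comparison asked whether the loci of these genes differ in accessibility when HMGB2 is raised.

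Because this control acts at promoters, 8 of them from different steps of the cycle are shown. Each line gives the 150 bases before the start site from RefSeq on GRCh38.p14, read 5′ to 3′ on the strand of the gene. Capitals mark words of 3 kinds, searched on both strands. The CHR word was TTTGAA in its usual form or, as a variant also searched here, TTTAAA, which reads the same on either strand. The box bound by NF-Y was searched as CCAAT in this exact form. For the E2F factors the search took TTGGCGC as a first form, with TTCCCGC as the next form, then TTCGCGC as another form, and lastly TTGCCGC as the remaining form. Words of different kinds may overlap, as where a CHR word runs into the reverse of a CCAAT box in MKI67.
CDK1 promoter, chr10:60778181-60778330, plus strand: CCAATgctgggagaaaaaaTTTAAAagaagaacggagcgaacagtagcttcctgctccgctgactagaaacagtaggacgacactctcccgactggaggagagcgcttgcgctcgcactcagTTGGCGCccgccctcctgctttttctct
CCNB1 promoter, chr5:69167000-69167149, plus strand: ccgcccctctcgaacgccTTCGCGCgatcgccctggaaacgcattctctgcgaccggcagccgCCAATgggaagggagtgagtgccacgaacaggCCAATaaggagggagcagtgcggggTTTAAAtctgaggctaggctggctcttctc
PLK1 promoter, chr16:23678739-23678888, plus strand: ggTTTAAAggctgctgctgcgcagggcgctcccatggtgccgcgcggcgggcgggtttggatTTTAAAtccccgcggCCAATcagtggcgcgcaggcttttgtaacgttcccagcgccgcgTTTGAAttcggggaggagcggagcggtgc
CDC20 promoter, chr1:43358831-43358980, plus strand: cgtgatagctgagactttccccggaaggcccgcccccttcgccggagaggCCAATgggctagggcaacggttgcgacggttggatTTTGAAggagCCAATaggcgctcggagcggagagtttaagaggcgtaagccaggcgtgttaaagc
MKI67 promoter, chr10:128126424-128126573, minus strand: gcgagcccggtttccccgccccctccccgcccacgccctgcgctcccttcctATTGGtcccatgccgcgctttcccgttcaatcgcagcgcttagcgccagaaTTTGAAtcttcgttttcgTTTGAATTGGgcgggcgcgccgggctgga
MCM6 promoter, chr2:135876444-135876593, minus strand: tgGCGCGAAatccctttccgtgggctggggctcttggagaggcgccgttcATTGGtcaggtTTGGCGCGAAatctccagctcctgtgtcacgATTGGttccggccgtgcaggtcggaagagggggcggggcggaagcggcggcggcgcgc
PCNA promoter, chr20:5126623-5126772, minus strand: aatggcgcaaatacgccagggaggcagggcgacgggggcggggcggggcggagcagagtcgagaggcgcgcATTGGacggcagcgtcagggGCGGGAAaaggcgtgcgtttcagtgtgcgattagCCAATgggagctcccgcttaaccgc
E2F1 promoter, chr20:33686386-33686535, minus strand: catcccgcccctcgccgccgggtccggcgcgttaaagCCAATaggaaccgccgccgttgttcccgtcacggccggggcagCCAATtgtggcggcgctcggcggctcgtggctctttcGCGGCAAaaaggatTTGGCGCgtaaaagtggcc

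In these stretches the promoters of PLK1, CDC20 and MKI67, which serve mitosis, hold CHR words and CCAAT boxes, while those of MCM6, PCNA and E2F1, which serve S phase and its onset, hold E2F words and CCAAT boxes. CDK1 and CCNB1, the kinase and cyclin that start mitosis, hold all 3 kinds. Promoter windows of 300 bases (250 before and 50 after the start) were found for 40 of the 50 genes. A CHR word stood in 15 of them (37.5%, against 19.4% of 15345 promoters of all genes), a CCAAT box in 28 (70%, against 36.6%) and an E2F word in 20 (50%, against 17.4%). By role, CHR words stood in 9 of 11 promoters of mitosis genes and 0 of 11 of origin licensing genes, and E2F words in 2 of 11 and 7 of 11. These are letter matches and not bound sites.

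Libraries held 26910189 to 45645294 counts in peaks, and libraries of a group differed from each other beyond counting noise (chi-square per degree of freedom from 2.48 to 4.62), so all 6 were kept as separate libraries. HMGB2 itself was checked first. Its coding-exon peak chr4:173332680-173333181 had 50.03, 24.95 and 21.06 normalized counts in the empty vector libraries and 102.0, 100.9 and 92.3 in the HMGB2OE libraries (log2 fold change 1.67, adjusted p = 0.000113), while its promoter peak had a log2 fold change of −0.011. Reads from the HMGB2 construct cannot be separated from reads of the gene, so the coding-exon counts check the labels and not the chromatin of the locus. Of the 8 markers of the melanocyte lineage, SOX10, MITF, PMEL, S100A1 and S100B had promoter peaks, and MLANA, TYR and DCT had no tested one. Mean normalized counts of those with peaks ran from 862 at SOX10 to 3768 at PMEL. Of genes of other lineages, CD3E (248) and EPCAM (217) also had promoter peaks, so a peak alone does not mark the lineage.

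At their promoters, the cell cycle genes were open in both groups and differed little between them. Each of the 50 genes had a promoter peak within 3 kb of a start site, and the one with the highest mean count was taken for each gene. Its normalized count, averaged over the 6 libraries, ran from 286 at CDT1, which brings the helicase to origins, to 2515 at CDC25C, the phosphatase that activates CDK1, with a median of 1035. For 35 of the 50 it lay above the median promoter level of all genes. Of the 50, 4 peaks are given by the rule to a neighbouring gene only: those of FEN1, ORC6 and AURKA lie in its body, and that of PCNA lies between genes with CDS2 as the nearest start site. Of all 50, 13 lie within 3 kb of a start site of another protein-coding gene as well. The CDC25C peak taken lies in an intron, near a further start site of the gene, and had a log2 fold change of −0.030. Another promoter peak of CDC25C, chr5:138337896-138338397, shared with FAM53C, had −0.22 (edgeR, unadjusted p = 0.0073, adjusted p = 0.0813). With fewer counts, it is not part of the promoter values below.

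One promoter passed the test across all peaks, that of MCM4, a subunit of the replicative helicase. Its peak chr8:47960567-47961068 had 1274, 1326 and 1332 normalized counts in the empty vector libraries and 1081, 1129 and 1067 in the HMGB2OE libraries. The groups did not overlap, and the log2 fold change was −0.26 (standard error 0.077, adjusted p = 0.0359), which is below the fold limit of 1.5 used for peaks. The same peak serves the start site of PRKDC, a DNA repair kinase that is transcribed in the opposite direction, so the 2 genes cannot be told apart there. Leaving out any library other than empty vector replicate 1 took its adjusted p to between 0.0775 and 0.145.

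Across all genes with a promoter peak, 1.33% had a higher and 1.8% a lower one at an adjusted p under 0.05, and of the 50 cell cycle genes 0 had a higher and 1 a lower one. At an unadjusted p under 0.05 there were 12, all lower: those of PRIM1, MCM4, MYBL2, CDK2, BUB1B, AURKB, MCM6, CCNE2, GMNN, TOP2A, FEN1 and MCM7. That is 24% of the 50, where 18.5% of the promoters of all genes had an unadjusted p under 0.05 and 13.9% had one and were lower.

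**Figure D1:**
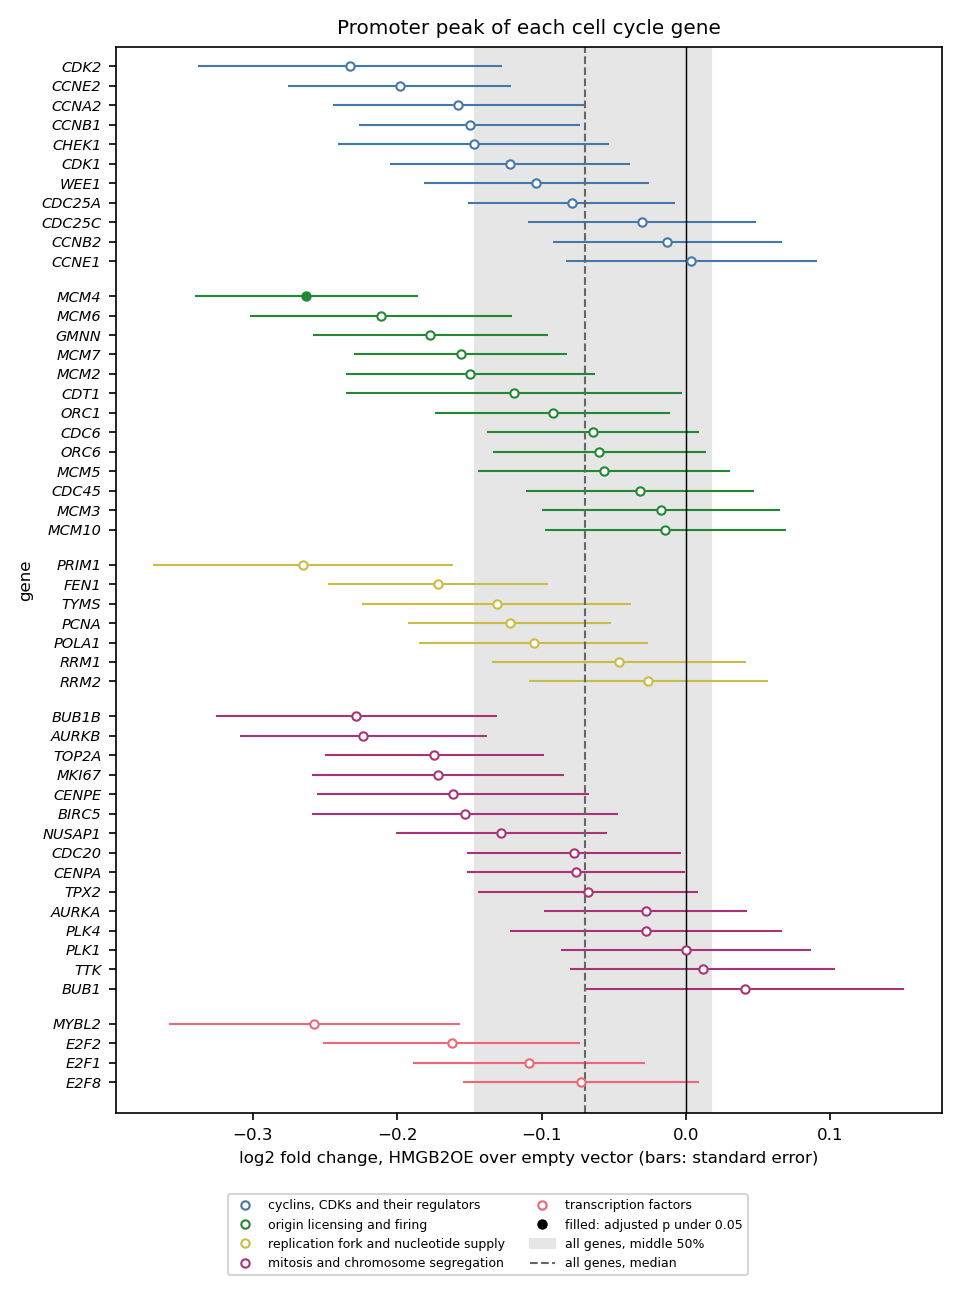
Log2 fold change of the promoter peak of each of the 50 genes (points, horizontal axis; bars are standard errors), grouped by role, with the middle 50% and the median (−0.070) of all genes in grey. All points lie between −0.27 and 0.041, 46 of 50 lie below 0, and MCM4 is the filled point, the single one with an adjusted p under 0.05.

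The remaining promoters lay close together, mostly a little below 0. Their log2 fold changes had a median of −0.11 over the 50 genes, from −0.27 to 0.041, and 46 of 50 (92%) were below 0. Promoters of all genes leaned the same way, with a median of −0.070 and 71.2% of 16043 below 0. Among the 12484 whose level was at least that of the lowest cell cycle gene, the median was −0.081 and 78.2% were below 0. The HMGB2OE libraries lay wholly below the empty vector libraries at 16 of the 50 promoters (32%, against 21.2% of all genes) and wholly above them at 0 (against 5.57%). Among the same 12484 promoters these shares were 24.6% and 3.16%. With a loess trend on mean count removed, the median was −0.056 and 36 of 50 were below 0, as were 59.5% of the promoters of all genes.

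The shift was spread over the libraries rather than carried by 1 of them. The median promoter of the cell cycle genes lay, relative to the empty vector mean and on the log2 scale, at −0.034, 0.038 and 0.0027 in the empty vector libraries and at −0.097, −0.106 and −0.134 in the HMGB2OE libraries. For the promoters of all genes the same values were −0.030, 0.033 and −0.0043, and −0.067, −0.050 and −0.099. In both sets every HMGB2OE library was below every empty vector library. The difference between the sets was −0.0035, 0.0048 and 0.0070 in empty vector and −0.030, −0.056 and −0.034 in HMGB2OE libraries. Because the reference is the mean of the empty vector libraries themselves, their values and differences lie near 0 by construction. Promoter peaks took 49.8% to 50.3% of all counts in empty vector and 49.0% to 49.6% in HMGB2OE libraries, and the part of this share in the cell cycle values was not tested.

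**Figure D2:**
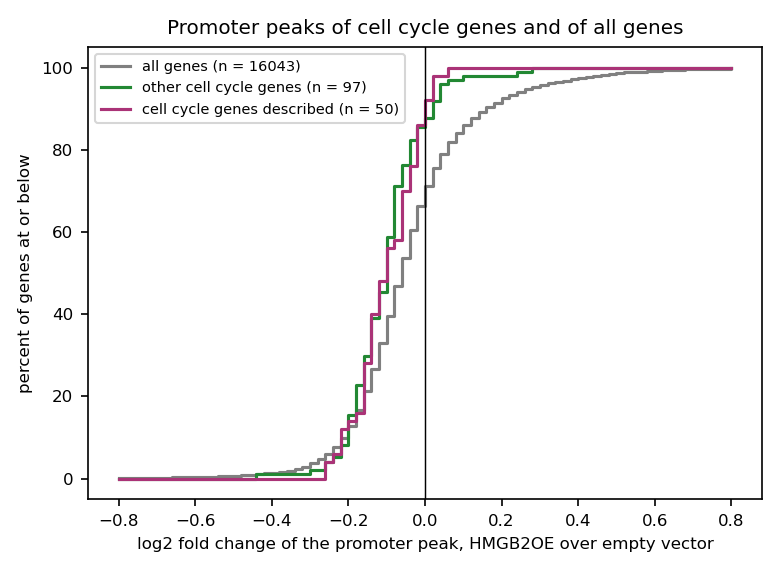
Percent of genes (vertical axis) whose promoter peak has a log2 fold change at or below the value on the horizontal axis, for all genes, the 50 genes described and the list of other cell cycle genes. The curves of both cell cycle groups reach 92% and 87.6% at 0, where the curve of all genes reaches 71.2%. Among promoters of all genes at or above the lowest level of the 50, not drawn, 78.2% were below 0. At the right no cell cycle gene described exceeds 0.041.

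Among cyclins, CDKs and their regulators, the promoters had a median log2 fold change of −0.12, and 10 of 11 were below 0. CDK1, the mitotic kinase, had 1021, 1116 and 975 normalized counts in empty vector and 988, 975 and 898 in HMGB2OE libraries, overlapping ranges (log2 fold change −0.12, standard error 0.083, adjusted p = 0.428). CCNB1, its cyclin B partner, had 1376, 1379 and 1369 against 1239, 1302 and 1174, which did not overlap (−0.15, standard error 0.077, adjusted p = 0.264). CCNE1, the cyclin E that drives cells into S phase, had 860, 814 and 805 against 771, 911 and 800 (0.0037, adjusted p = 0.988), so its ranges overlapped throughout. CDK2, the partner of cyclins E and A, had one of the 5 lowest values (−0.23, adjusted p = 0.197), at a peak it shares with the pigment cell gene PMEL. CCNB2, a second cyclin B, was near 0 (−0.013, adjusted p = 0.951).

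All 13 promoters of origin licensing and firing genes were below 0, with a median of −0.092. MCM2, a helicase subunit, had 990, 1097 and 914 normalized counts in empty vector and 868, 963 and 877 in HMGB2OE libraries (−0.15, standard error 0.086, adjusted p = 0.334). Without empty vector replicate 2 its log2 fold change was −0.074. CDC6, which loads the helicase together with CDT1, had 1582, 1616 and 1597 against 1577, 1528 and 1480 (−0.064, adjusted p = 0.673). ORC1, the largest subunit of the origin recognition complex, had 1090, 1199 and 1081 against 1081, 1099 and 982 (−0.092, adjusted p = 0.563). Ranges overlapped at MCM2 and ORC1. At CDC6 they did not, by a narrow margin. Among the subunits of the helicase ring, values ran from −0.26 at MCM4 and −0.21 at MCM6 to −0.017 at MCM3.

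The 7 promoters of fork and nucleotide supply genes were also all below 0, with a median of −0.12. PRIM1, the catalytic subunit of primase, had the lowest value of all 50: 605, 699 and 530 normalized counts in empty vector and 480, 564 and 485 in HMGB2OE libraries (−0.27, standard error 0.104, adjusted p = 0.126). Its ranges overlapped, and the peak also serves HSD17B6. Without empty vector replicate 3 its value was −0.36 (adjusted p = 0.0473), and without empty vector replicate 2 it was −0.15 (adjusted p = 0.537). PCNA, the sliding clamp of the replication fork, had one of the most open promoters, with 2132, 2140 and 2184 against 1979, 1953 and 2002 (−0.12, standard error 0.070, adjusted p = 0.334), and its ranges did not overlap. TYMS, which makes thymidylate, had −0.13 (adjusted p = 0.452), and RRM2, the small subunit of ribonucleotide reductase, had −0.026 (adjusted p = 0.899), both with overlapping ranges.

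Mitosis genes had a median of −0.078, with 12 of 15 below 0, and held 3 of the 5 highest values of the whole set. These were PLK1, a mitotic kinase (0.00015, adjusted p = 0.999), TTK, the checkpoint kinase also called MPS1 (0.012, adjusted p = 0.962), and BUB1, another checkpoint kinase (0.041, adjusted p = 0.878). At the other end stood BUB1B, which encodes the checkpoint protein BUBR1 (−0.23, adjusted p = 0.166). AURKB, the kinase of the chromosomal passenger complex, had 914, 1010 and 876 normalized counts in empty vector and 783, 844 and 775 in HMGB2OE libraries (−0.22, standard error 0.085, adjusted p = 0.117). TOP2A, the topoisomerase that untangles sister chromatids, had 1437, 1490 and 1354 against 1267, 1283 and 1245 (−0.17, adjusted p = 0.179). MKI67, whose product Ki-67 coats mitotic chromosomes and is the common marker of dividing cells, had 714, 780 and 706 against 633, 671 and 653 (−0.17, adjusted p = 0.261). The ranges of AURKB, TOP2A and MKI67 did not overlap, and none of the 3 passed the adjusted test.

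The 4 transcription factor genes were all below 0, with a median of −0.14. MYBL2, which encodes B-MYB, the activator in the MuvB complex, had 630, 696 and 537 normalized counts in empty vector and 566, 501 and 493 in HMGB2OE libraries (−0.26, standard error 0.101, adjusted p = 0.128). As at PRIM1, the value moved with single libraries, to −0.35 (adjusted p = 0.0447) without empty vector replicate 3 and to −0.16 (adjusted p = 0.495) without empty vector replicate 2. E2F1 had 1155, 1269 and 1326 against 1227, 1143 and 1109 (−0.11, standard error 0.081, adjusted p = 0.474). Ranges overlapped at both MYBL2 and E2F1.

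Beyond the promoters, single peaks in 5 genes differed by at least 1.5-fold. A call required both an adjusted p under 0.05 and a change of 1.5-fold or more, a rule that 1.87% of the tested peaks of the series met as higher and 1.44% as lower. Of the 209 peaks of the cell cycle genes, 3 (1.44%) were called higher and 4 (1.91%) lower, near these shares, and with no fold limit 6 were higher and 5 lower (2.87% and 2.39%, against 3.44% and 3.03% of all tested peaks). The median log2 fold change of the 209 was −0.068, against −0.0049 over all tested peaks, and 60.3% were below 0 against 50.8%. These sets differ in peak type, since 108 of the 209 lay outside any promoter, against 103817 of all 150117 tested peaks. Over all promoter peaks the median was −0.036 with 57.1% below 0, and over all peaks outside promoters it was 0.014 with 48.0%. None of the 80 peaks within 3 kb of a start site of its own gene was called. Of all promoter peaks, 1.07% were called higher and 0.838% lower. These 80 had a median of −0.11 with 81.25% below 0, and the 129 others had a median of 0.0033 with 47.3% below 0. The called peaks lay in CENPE (2), MKI67 (2), TPX2, RRM2 and E2F8. Mitosis genes, which hold 67 of the 209 peaks, held all 4 that were lower and 1 that was higher. A link between role and direction was not tested. Groups without overlap, reported below for these peaks, nearly always go with a call. They were found at 98.25% of all peaks called higher and 98.15% of all called lower.

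The middle 200 bases of 3 of them, 1 that was lower and 2 that were higher, are given on the plus strand of hg38. Capitals mark the AP-1 word (TGAGTCA or TGACTCA, either strand), taken from the study's motif analysis after the values were known.
MKI67 peak, chr10:128130250-128130449, plus strand: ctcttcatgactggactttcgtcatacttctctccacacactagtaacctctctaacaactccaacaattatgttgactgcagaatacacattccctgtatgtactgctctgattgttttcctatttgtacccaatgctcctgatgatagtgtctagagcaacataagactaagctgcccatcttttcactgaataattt
MKI67 peak, chr10:128751411-128751610, plus strand: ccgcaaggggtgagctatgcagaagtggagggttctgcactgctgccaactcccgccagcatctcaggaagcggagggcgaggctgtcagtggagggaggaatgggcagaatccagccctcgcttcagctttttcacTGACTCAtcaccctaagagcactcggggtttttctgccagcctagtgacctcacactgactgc
E2F8 peak, chr11:19275606-19275805, plus strand: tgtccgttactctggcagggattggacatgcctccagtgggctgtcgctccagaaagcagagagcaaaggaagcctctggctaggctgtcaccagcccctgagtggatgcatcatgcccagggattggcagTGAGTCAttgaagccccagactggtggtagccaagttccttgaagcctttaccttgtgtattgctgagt

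The lower peak, the first of MKI67, has 39.5% GC in these bases and no AP-1 word, and the 2 higher ones have 58.5% and 55% GC and 1 such word each. In whole peaks the word stood in 2 of the 3 called higher and 0 of the 4 called lower, and the higher peak without it is that of RRM2. It stood in 26.9% of the 108 peaks of these genes outside any promoter and in 32.0% of all such peaks, in 37.0% of those called higher and 34.9% of those called lower.

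The largest change among the 209 peaks was a fall in an intron of CENPE, which encodes the kinesin that carries chromosomes to the spindle equator. Its peak chr4:103150653-103151154, 30.6 kb from the nearest start site of the gene, had 102.8, 82.6 and 73.7 normalized counts in the empty vector libraries and 32.3, 38.4 and 40.5 in the HMGB2OE libraries. Every HMGB2OE value was far below the lowest empty vector value, with means of 86.4 ± 14.9 and 37.1 ± 4.26 (SD, n = 3 each). The log2 fold change was −1.22 (standard error 0.227), with an adjusted p of 0.00122 from edgeR. A second intronic peak, chr4:103137335-103137836, had 112.6, 159.2 and 111.2 against 86.7, 54.2 and 76.6 (−0.84, standard error 0.191, adjusted p = 0.00711). Its groups did not overlap either, but without empty vector replicate 2 its adjusted p was 0.102 and without HMGB2OE replicate 2 it was 0.0608. The promoter of CENPE had −0.16 (adjusted p = 0.341). Other tested peaks within 500 kb of the first had a median of −0.084.

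MKI67 had the most peaks, 20, and they went both ways. The peak chr10:128130099-128130600, between genes and 3.93 kb upstream of its start, had 88.9, 84.3 and 74.9 normalized counts in empty vector and 48.5, 43.4 and 40.5 in HMGB2OE libraries. Every HMGB2OE library lay below every empty vector library (−0.90, standard error 0.214, adjusted p = 0.00948). The other tested peaks within 500 kb had a median of 0.18. A peak 625 kb upstream, chr10:128751260-128751761, rose from 45.9, 83.5 and 90.1 to 154.7, 132.6 and 134.0 (0.91, standard error 0.187, adjusted p = 0.00283). That peak belongs to MKI67 solely as the nearest protein-coding start site, and its groups did not overlap. Another peak, 61.4 kb upstream, was higher below the fold limit (0.57, adjusted p = 0.0325), with an adjusted p of 0.0693 by DESeq2 and up to 0.202 with 1 library left out. Summed over all 20 peaks, MKI67 had a log2 fold change of 0.023 (adjusted p = 0.793).

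**Figure D3:**
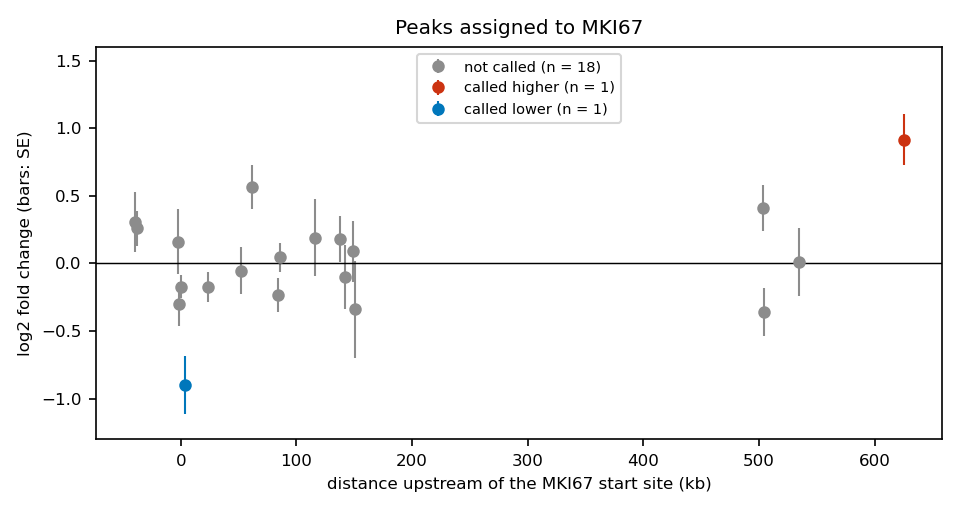
Log2 fold change (vertical axis; bars are standard errors) of the 20 peaks assigned to MKI67 against their distance upstream of its start site in kb. The lower call (−0.90) is 3.93 kb and the higher call (0.91) 625 kb upstream, with the promoter peak (−0.17) near 0 kb.

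TPX2, RRM2 and E2F8 each had 1 called peak. The intronic peak chr20:31764506-31765007 of TPX2, which encodes a spindle assembly factor that activates Aurora A, had 100.1, 61.9 and 63.2 normalized counts in empty vector and 51.9, 38.4 and 33.8 in HMGB2OE libraries (−0.83, standard error 0.247, adjusted p = 0.0395). The lowest empty vector library was above the highest HMGB2OE library. Without empty vector replicate 1, HMGB2OE replicate 2 or HMGB2OE replicate 3 its adjusted p was 0.211, 0.123 or 0.139. The intronic peak chr2:10188256-10188757 of RRM2, 65.3 kb from its nearest start, rose from 57.0, 74.9 and 80.7 to 101.2, 106.8 and 135.1 (0.67, standard error 0.185, adjusted p = 0.0257), also without overlap. Without empty vector replicates 1 or 2 or HMGB2OE replicates 2 or 3 its adjusted p was 0.0511 to 0.134.

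E2F8 encodes an atypical E2F that represses E2F targets. Of its 7 peaks, 6 had log2 fold changes above 0. The intergenic peak chr11:19275455-19275956, 34.1 kb from the start, had 72.3, 74.0 and 118.2 normalized counts in empty vector and 124.1, 138.5 and 145.2 in HMGB2OE libraries (0.63, standard error 0.178, adjusted p = 0.0305). The groups were separated by a small margin. Leaving out any library but empty vector replicate 3 took the adjusted p to 0.0562 to 0.171, and DESeq2 gave 0.0650 here, 0.0732 at the TPX2 peak and 0.0526 at the RRM2 peak. A nearer one, chr11:19258564-19259065, was higher below the fold limit (0.52, adjusted p = 0.0108). The 58 other tested peaks within 500 kb, of E2F8 and its neighbours, had a median of 0.15, and 5 of them were called higher and 0 lower. The promoter of E2F8 had a log2 fold change of −0.073 (adjusted p = 0.664).

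PLK4, the kinase that starts centriole duplication, had an intergenic peak that was higher below the fold limit, chr4:127870715-127871216 (0.55, adjusted p = 0.0409). Its adjusted p was 0.0803 with DESeq2 and 0.264 without HMGB2OE replicate 3.

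**Figure D4:**
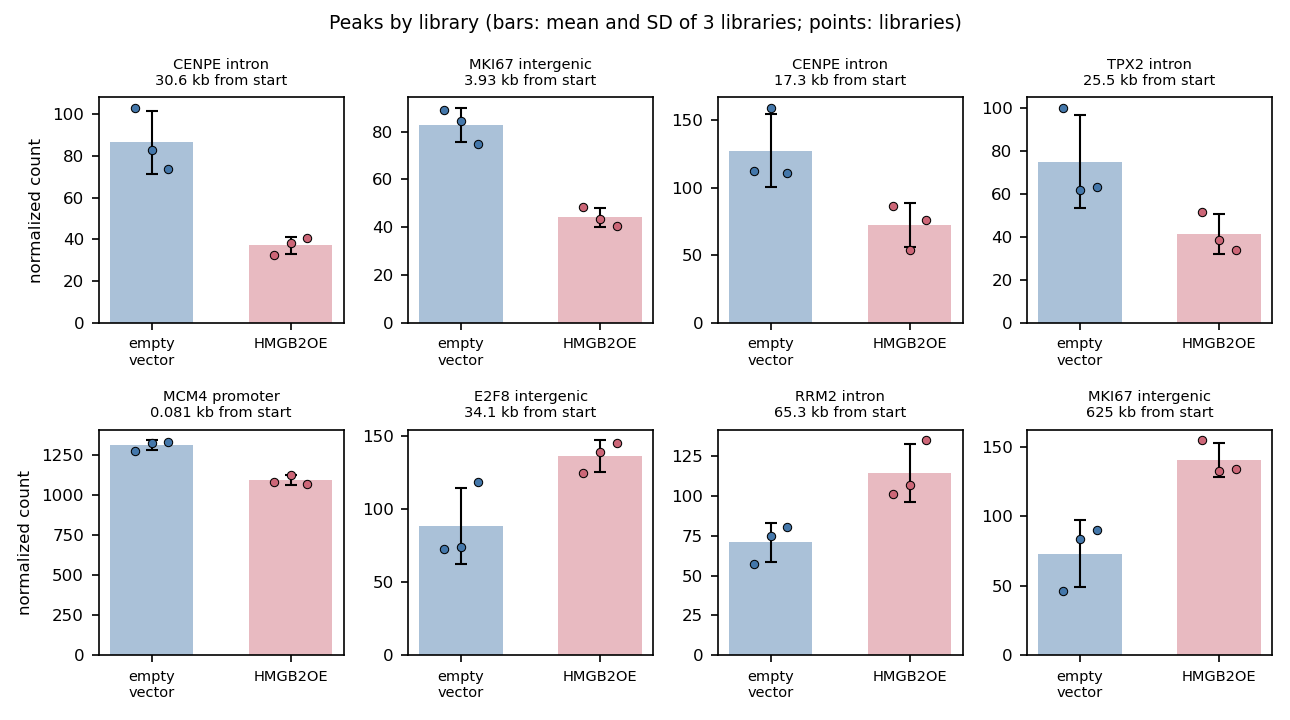
Normalized counts (vertical axes, from 0) of the 7 called peaks and of the MCM4 promoter peak in each library (points), with the mean and SD of 3 libraries (bars). In each panel the points of empty vector and HMGB2OE libraries do not overlap. The same held for 98.25% of all peaks called higher and 98.15% of all called lower.

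The called peaks differed in base composition as well as in direction. GC content was 33.1% to 37.8% in the 4 lower and 54.0% to 55.8% in the 3 higher peaks. Over all tested peaks its median was 47.4% in those called higher, 40.4% in those called lower and 46.2% in all. With counts corrected for GC content in each library, the CENPE and MKI67 peaks and that of RRM2 stayed called, the TPX2 peak had an adjusted p of 0.0944, and the E2F8 peak from 19275455 a log2 fold change of 0.58, under the limit. The same correction called a peak of CDK1 from 60810737 higher (0.61, adjusted p = 0.0456), which stood just outside without it (0.61, adjusted p = 0.0508).

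**Figure D5:**
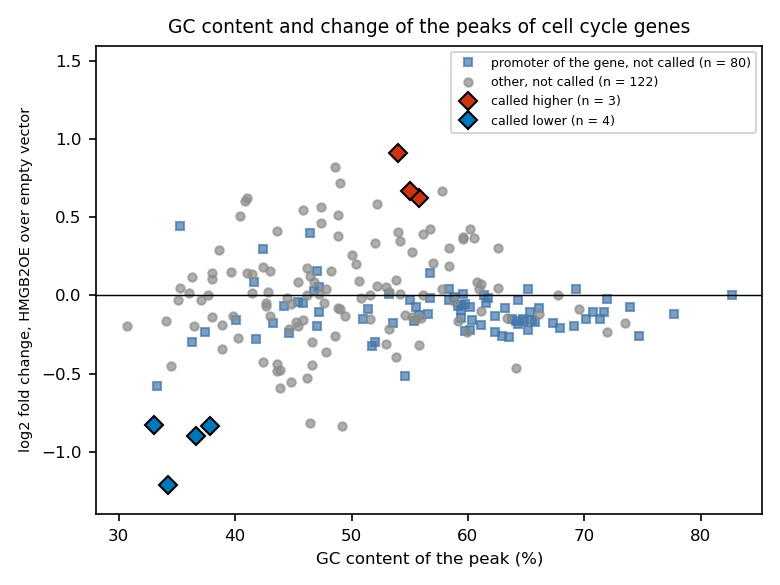
Log2 fold change (vertical axis) against GC content in percent (horizontal axis) of the 209 peaks, with called peaks as diamonds. The 4 lower calls lie at 33.1% to 37.8% GC and the 3 higher ones at 54.0% to 55.8%, and the promoter peaks (squares) are mostly GC-rich and a little below 0.

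Each gene was also tested as the sum of its peaks. Of 18341 genes tested, 5.83% had higher and 3.42% lower sums at an adjusted p under 0.05. Among the 49 cell cycle genes with peaks, 0 were higher and 1 was lower, and 14 (28.6%) had an unadjusted p under 0.05, against 25.2% of all genes. The sums of PCNA, ORC6 and AURKA lack the promoter peak described above, which the rule gives to a neighbour. The median log2 fold change of the 49 was −0.063, against −0.0020 over all genes, and 75.5% were below 0 against 50.7%. The cell cycle genes had a median of 3 peaks, and most of their sums hold the promoter peak taken above. These values therefore partly repeat the lean at promoters, where all genes had a median of −0.070 and 71.2% below 0. The 1 lower gene was MCM4, with sums of 1404, 1374 and 1400 in empty vector and 1186, 1220 and 1197 in HMGB2OE libraries (−0.21, standard error 0.0505, adjusted p = 0.0137). The sum of its other peaks, without the promoter, had −0.0092. Without HMGB2OE replicate 1 or empty vector replicate 2 the adjusted p of MCM4 was 0.0664 or 0.0565.

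The next genes stood at the threshold. AURKB had sums of 3093, 2956 and 2743 in empty vector and 2638, 2744 and 2407 in HMGB2OE libraries (−0.17, adjusted p = 0.0505), and DESeq2 called it lower (adjusted p = 0.0368). E2F8 had 1495, 1482 and 1494 against 1656, 1631 and 1677 (0.15, standard error 0.0469, adjusted p = 0.0510). Summed without its promoter, it was called higher (0.38, adjusted p = 0.00172). Under the same restriction CCNB2 and TPX2 were called lower (−0.82 each, adjusted p = 0.0150 and 0.0417). For TPX2 the restriction left only the intronic peak already called, so this repeats that call. At CCNB2 the peaks away from the promoter were not called singly (adjusted p = 0.116 and 0.0934). The share of all genes called by such sums is not given here.

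The other genes of the cell cycle were counted in the same way. A list of 98 of them (G1 control, cell cycle transcription, replication and mitosis) had 704 tested peaks, with a median of −0.046. Of these, 10 (1.42%) were called higher and 5 (0.71%) lower, against 1.87% and 1.44% of all tested peaks. Of 97 promoter peaks, 85 were below 0 (87.6%, against 71.2% of all genes), with a median of −0.11. At an adjusted p under 0.05, 1 was lower (1.03%, against 1.8% of all genes) and 0 were higher (against 1.33%). By summed counts 2 of 97 genes were called higher and 4 lower, where 5.83% and 3.42% of all genes were. MAD2L1, a spindle checkpoint protein (0.15, adjusted p = 0.0348), and TFDP1, the dimer partner of E2Fs (0.31, adjusted p = 0.00812), were higher. CENPK of the kinetochore (−0.26, adjusted p = 0.0168), the spindle motor KIF11 (−0.19, adjusted p = 0.0238), the DNA ligase LIG1 (−0.15, adjusted p = 0.0418) and the origin recognition subunit ORC2 (−0.17, adjusted p = 0.0350) were lower.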

How the data were processed

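ATAC-seq libraries of A375 cells (3 empty vector, 3 HMGB2OE, grouped and numbered by the sample labels) were analysed. The authors deposited whole-number counts per peak and library without normalization. Per the study's methods, reads were aligned to hg38 with Bowtie 2 and deduplicated with Picard, and peaks were called with MACS2 against a public melanocyte dataset, cleared of blacklisted regions, merged and counted with featureCounts. The submitters' processing notes also name bcl2fastq 2.17, Trim Galore 0.6.7, cutadapt 4.0 and FastQC 0.12.1. A shift for Tn5 insertion, the treatment of multiply aligned reads and whether peaks were called per library are not given in the sources used here; these could change which weak peaks were listed and their edges.

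The table held 152800 peaks, 502 bp wide except 15. Counts were scaled by TMM, filtered by filterByExpr and tested by edgeR 4.0.16 (quasi-likelihood test, no covariate, R 4.3.3), with Benjamini-Hochberg adjustment over all 150117 tested peaks, or over 18341 genes for sums. The study used DESeq2, which is an alternative here (1.42.0). Normalized counts are counts over effective library size, times the mean size. A log2 fold change is HMGB2OE over empty vector, and its standard error is its size divided by the square root of F. TMM centres fold changes near 0, so a change common to most peaks would not appear. A two-sided exact permutation test of 3 against 3 libraries cannot go below 0.1, so none is given. Depth was 26910189 to 45645294 counts a library.

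Peaks were annotated with GENCODE 44 on hg38. Promoter peaks are centred within 3 kb of a protein-coding start site of the gene. The genes, the lists and the tests were chosen with earlier results of these data known. Genes named with values were a set of 14 examples, the 5 highest and 5 lowest promoter peaks, every called peak, peaks past the adjusted p below the fold limit and genes called by sums. AURKB, E2F8, CCNB2 and TPX2 sums, the CDK1 peak from 60810737, the MCM6 and MCM3 promoters and the genes behind counts were named after their values were seen. Promoter sequences came from RefSeq on GRCh38.p14, matched by symbol for 40 of 50 genes. The pipeline was tested on simulated counts. Alternatives were other scalings, DESeq2, other filters, the replicate number as a block, GC offsets, both together, each library left out, other fold limits and other peak assignments. The share and median of promoters below 0 were added as results after seeing the data.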

Additional observations from a re-analysis of the deposited data

How the results depend on the processing

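The calls in the CENPE peak from 103150653 and the MKI67 peaks from 128130099 and 128751260 held in every alternative scaling, test, filter and left-out library. With 3 and 4 peaks called higher and lower, library size only gave 5 and 3, DESeq2 1 and 3, a lower fold limit 6 and 4, no limit 6 and 5, promoter peaks only 0 and 0, and left-out libraries 1 to 5 and 2 to 4. For the other cell cycle genes (10 and 5), library size only gave 12 and 3, DESeq2 6 and 3, and the lower limit 18 and 12. No limit gave 18 and 15, promoter peaks only 0 and 1, and left-out libraries 6 to 11 and 2 to 6. Over all tested peaks (2800 and 2166), library size only gave 3118 and 1865 and DESeq2 2075 and 1641. Left-out libraries gave 1821 to 2978 and 1552 to 2237 there. Calls over all peaks at the lower limit, and over all genes by sums in these settings, are not given here. The median of the 209 peaks (−0.068) was −0.047 with library size only, −0.043 with a loess trend, −0.051 with nearest start sites and −0.12 with promoter peaks only. The promoter median (−0.11) was −0.056 with a loess trend and −0.12 to −0.086 with left-out libraries, and its difference from all genes (−0.044) stayed between −0.046 and −0.026. Between 36 and 49 promoters were below 0.

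The replicate numbers did not clearly pair the libraries. Correlations of deviations were −0.237, 0.259 and 0.434 between libraries of the same number, and from −0.488 to 0.272 between those of different numbers. With the replicate block 4 peaks were called higher and 4 lower, and sums called 1 gene higher (E2F8) and 3 lower (MCM4, AURKB and CDK2). With the replicate block and GC offsets 0 promoters had an adjusted p under 0.05, where 0 to 2 had one with left-out libraries. Sums called 1 gene higher (E2F8) with a loess trend or distal peaks only. They called 2 lower with library size only, a loess trend, DESeq2 or distal peaks only, and 0 to 4 with left-out libraries; 4 without empty vector replicate 3 (AURKB, CENPE, MCM4 and TOP2A), and 0 without HMGB2OE replicate 1 or empty vector replicate 2.

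Promoters near 0 changed sign. CCNB2 was 0.0084 with library size only and 0.044 with a loess trend, and RRM2 was 0.035 with a loess trend, 0.014 with GC offsets and 0.020 with the block added. PLK1 was −0.011 and −0.0094 and TTK −0.013 and −0.0079 in those GC fits. With left-out libraries BUB1 ran from −0.073 to 0.15, CCNB2 from −0.053 to 0.024, CCNE1 from −0.072 to 0.053, PLK1 from −0.040 to 0.056, RRM2 from −0.11 to 0.036 and TTK from −0.078 to 0.071. The cause of these moves was not tested. With 3 libraries a group, the standard errors of the promoter changes (0.070 to 0.116) are about as large as most of the changes.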
